A study of Mus musculus with 15 samples.

Results

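CG-dense windows with high 5-hydroxymethylcytosine (5hmC) were examined in genomic DNA of E14TG2a mouse embryonic stem cells (mESCs) grown with LIF and serum on gelatin. The autosomes were divided into fixed windows of 2 kb, and a window was CG-dense when it held 60 or more CGs. A CG-dense window was a member when both libraries made from 500 ng of DNA had at least 2 hmTOP-seq reads per CG, so the members were chosen by the 500-ng reads and those values are given as a description only. Of 17951 CG-dense windows among 1197510 autosomal windows with a CG, 3085 (17.2%) were members. They held 233504 CGs, or 1.15% of all autosomal CGs, with a median of 71 CGs and a range from 60 to 245. The members were compared with the 14866 other CG-dense windows, 9196 of which had under 0.5 reads per CG in both 500-ng libraries and are called windows lacking 5hmC.

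hmTOP-seq reads 5hmC at single CGs: beta-glucosyltransferase (BGT) puts an azide-bearing glucose on 5hmC, an oligonucleotide is clicked to it, and a polymerase primed there reads from the modified CG. uTOP-seq instead puts the azide on CGs with no modification (uCGs) and then reads them in the same way. Every hmTOP-seq input of DNA (500, 50 or 5 ng) was sequenced as 2 technical replicates beside 2 control libraries that had skipped BGT, while uTOP-seq had 3 replicates from 300 ng. All libraries came from a single cell line, and no source used here says that the uTOP-seq replicates came from separate cultures, so their spread may also be technical. The labelled hmTOP-seq libraries held between 14884939 and 32502791 reads, the uTOP-seq libraries between 20120568 and 28412885, and the control libraries between 3409 and 10072. Reads in 5-ng libraries fell on 1196131 and 1227372 CGs, against 6903098 and 7220651 CGs at 500 ng. Read counts rank CGs by relative modification and give no absolute percentage.

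5hmC is made from 5-methylcytosine by the TET dioxygenases and is a step in the removal of methylation, as well as a lasting mark in gene bodies and at enhancers. Many CG-dense stretches of a mammalian genome are CG islands at promoters, which carry little methylation and so offer little substrate for TET enzymes. CG-dense stretches inside genes, at genes silenced by methylation and around developmental regulators can carry methylation and 5hmC.

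A group of 5 members stood apart before any comparison. A run of 4 neighbouring windows, chr17:39842001-39850000, covers a copy of the ribosomal RNA unit annotated with Gm26917, CT010467.1, Gm42418 and AY036118, and the remaining window, chr11:3192001-3194000, lies over Sfi1 and Drg1. Their pooled 500-ng signal was 67.6 and 64.3 reads per CG and their pooled uCG signal was 140, 125 and 103 reads per CG in the 3 uTOP-seq libraries. These 5 windows are called multi-copy windows here and the other 3080 members single-copy, as names only, since copy number was not measured. They were set apart after their values were seen, by a mean of over 40 uCG reads per CG, and the main results that rest on reads are given with and without them.

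Sequence of 7 members is shown to make the CG density and its use visible. Each shows 200 bases of the plus strand of mm10 that touch no annotated UTR. No other such 200 bases in the window hold more CGs. Capitals mark the CGs that had a read in both 50-ng libraries. Gm6089, Smpd3 and 1600014C10Rik are among the single-copy members with the highest 50-ng signal. The others represent developmental transcription factors (Tbx5), pluripotency factors (Sall1), clustered Hox genes (Hoxc4) and germline genes (Ctcfl).

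Tbx5, chr5:119837322-119837521: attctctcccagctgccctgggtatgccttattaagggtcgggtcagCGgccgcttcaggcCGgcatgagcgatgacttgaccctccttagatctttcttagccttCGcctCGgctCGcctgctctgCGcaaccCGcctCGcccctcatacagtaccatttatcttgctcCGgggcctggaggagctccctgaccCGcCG

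Gm6089, chr5:26070654-26070853: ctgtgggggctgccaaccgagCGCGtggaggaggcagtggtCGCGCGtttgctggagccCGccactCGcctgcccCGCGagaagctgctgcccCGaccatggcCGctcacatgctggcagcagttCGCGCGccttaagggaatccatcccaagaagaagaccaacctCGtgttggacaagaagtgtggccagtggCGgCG

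Sall1, chr8:89030119-89030318: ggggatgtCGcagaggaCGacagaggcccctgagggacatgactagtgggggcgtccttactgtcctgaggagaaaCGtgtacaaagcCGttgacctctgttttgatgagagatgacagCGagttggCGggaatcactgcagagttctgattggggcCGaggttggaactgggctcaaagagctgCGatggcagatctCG

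Hoxc4, chr15:103027460-103027659: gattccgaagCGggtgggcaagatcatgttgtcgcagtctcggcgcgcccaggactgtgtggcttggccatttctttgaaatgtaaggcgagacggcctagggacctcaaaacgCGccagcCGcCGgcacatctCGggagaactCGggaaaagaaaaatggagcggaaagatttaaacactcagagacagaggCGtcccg

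Ctcfl, chr2:173119008-173119207: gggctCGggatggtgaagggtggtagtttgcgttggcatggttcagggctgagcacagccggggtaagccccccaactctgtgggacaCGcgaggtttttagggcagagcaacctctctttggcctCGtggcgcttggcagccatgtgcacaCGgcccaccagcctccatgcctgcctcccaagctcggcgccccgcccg

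Smpd3, chr8:106264622-106264821: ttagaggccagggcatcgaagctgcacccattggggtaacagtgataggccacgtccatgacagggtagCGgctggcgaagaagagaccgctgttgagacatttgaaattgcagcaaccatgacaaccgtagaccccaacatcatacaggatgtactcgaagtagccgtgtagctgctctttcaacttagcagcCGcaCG

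1600014C10Rik, chr7:38182662-38182861: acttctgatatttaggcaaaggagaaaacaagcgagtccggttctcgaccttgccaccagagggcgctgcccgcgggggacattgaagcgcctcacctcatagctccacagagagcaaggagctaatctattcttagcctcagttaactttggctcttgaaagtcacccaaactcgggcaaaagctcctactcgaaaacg

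In the Tbx5 intron 11 of 14 CGs were read in both 50-ng libraries, at 11.7 and 10.4 reads per CG, and at Gm6089, outside protein-coding genes, 17 of 18 CGs were, at 8.67 and 9.67. The coding stretch of Sall1 had 9 of 10 CGs read in both libraries and the intron of Hoxc4 7 of 17. The intron stretch of Ctcfl had 4 of 12 and the coding stretch of Smpd3 3 of 10. The stretch upstream of 1600014C10Rik had 0 of 10 CGs with a 50-ng or 500-ng read while its uCG signal was 5 reads per CG, although its window has the highest 5hmC of all single-copy members. Denser stretches of that window touch annotated UTRs and are not shown.

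The signal that chose the members was repeated in the 50-ng and 5-ng libraries, which the rule did not use. At 50 ng the members had 3.14 and 2.93 reads per CG and the other CG-dense windows 0.329 and 0.313, a ratio of 9.45 ± 0.131 (SD, n = 2 libraries). Without the multi-copy windows the ratio was 9.04 ± 0.129, and with the others weighted CG by CG to the members' local CG density it was 6.20 ± 0.112. At 5 ng the members had 1.87 and 1.90 reads per CG and the others 0.210 and 0.214, a ratio of 8.90 ± 0.0256 (SD, n = 2). As a ratio of medians over windows it was 13.4 at 50 ng and 30.6 at 5 ng, so the 5-ng value depends strongly on how windows are summarised. With 2 libraries per input no permutation test over libraries can pass a threshold, so these ratios carry no p-value. The 500-ng values, which chose the groups, were 4.80 and 4.57 reads per CG in members and 0.472 and 0.457 in the others. All autosomal CGs together had 1.12 and 1.07 reads per CG at 50 ng, so that the members lay 2.77 ± 0.0512 times above the genome and the other CG-dense windows below it. As a ratio of medians over windows, members to all autosomal windows, it was 7.31.

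**Figure D1:**
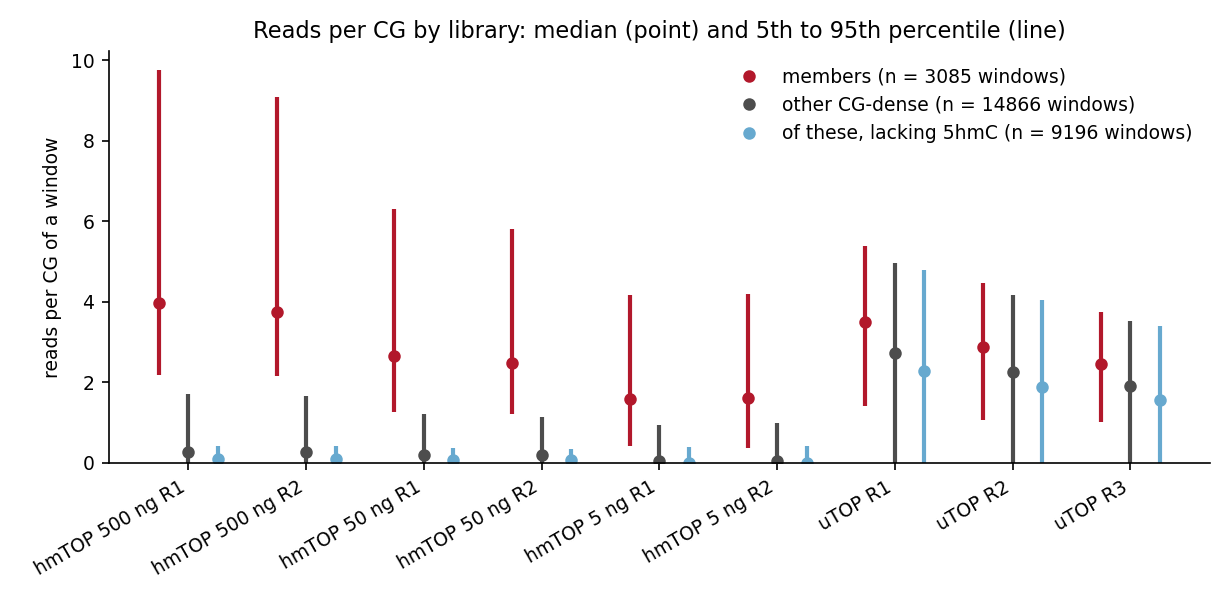
Reads per CG of a window in each library (x axis, R is the replicate), for members, other CG-dense windows and the part of these that lack 5hmC; points are medians over windows and lines run from the 5th to the 95th percentile. At 50 ng the members' medians are 2.66 and 2.49 reads per CG and the others' 0.196 and 0.189, while the uCG ranges of all groups overlap.

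Single members followed the pooled values closely at 50 ng and less so at 5 ng. A total of 3031 members (98.2%) lay above the 95th percentile of the other CG-dense windows at 50 ng, 1.15 reads per CG, and 2651 (85.9%) lay above the 95th percentile at 5 ng, 0.844 reads per CG. Every member had a read in both 50-ng libraries, and 2949 (95.6%) were above the autosomal mean in both, against 518 (3.48%) of the other CG-dense windows. At 5 ng, 2300 members (74.6%) were above the autosomal mean in both libraries, against 419 (2.82%) of the others, and 3 members had no read in a library. After centring, the replicates of a member differed by over 2-fold in 43 members (1.39%) at 50 ng and in 939 of the 3082 with reads in both libraries (30.5%) at 5 ng. The other CG-dense windows with reads in both libraries, which had fewer reads, differed so in 30.7% and 58.7%.

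Relative to the total of each library, the members lost a little of their share at lower input. They took 3.49% and 3.38% of autosomal reads in the 500-ng libraries, 3.21% and 3.13% in the 50-ng libraries, then 2.96% and 2.94% in the 5-ng libraries. Their 50-ng share was between 0.899 and 0.952 times the 500-ng share over the 4 pairs of libraries, and their 5-ng share between 0.844 and 0.878 times. Without the multi-copy windows these ratios were between 0.894 and 0.948 and between 0.838 and 0.873. The other CG-dense windows had ratios between 0.976 and 0.998 at 50 ng and between 0.967 and 0.985 at 5 ng. Those lacking 5hmC had ratios between 1.06 and 1.08 at 50 ng. The 500-ng reads chose both groups, so the choice itself may give a fall in members and a rise in windows lacking 5hmC. Its part was not tested.

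Input was also compared window by window, 5 ng against 50 ng, with edgeR's quasi-likelihood test over 454511 windows. No member passed an adjusted p of 0.05 in either direction, and neither did any other tested window (0% called higher and 0% called lower). At an unadjusted p under 0.05, 21 members were higher and 157 lower at 5 ng, or 0.681% and 5.09%, against a background of 1.15% and 8.40% of all tested windows. DESeq2 called 29 members, 6 of them higher at 5 ng, with 0.598% of all windows called. Leaving out a 5-ng library, where the lone library is assumed to vary like the 50-ng pair, gave 833 members without replicate 1 and 760 without replicate 2, beside 30.3% and 27.5% of all windows. The median log2 difference was -0.22 in members and also -0.22 in the 9270 other CG-dense windows that passed the count filter. For all tested windows it was -0.14.

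The rule does not use reads of the no-BGT controls. Of the 9946 and 9225 autosomal reads in the 500-ng controls, 201 and 195 fell in members, or 2.02% (1.75% to 2.32%, exact 95% binomial interval) and 2.11% (1.83% to 2.43%). The share in the labelled 500-ng libraries was 3.49% and 3.38%, and 37 of the 201 and 50 of the 195 control reads lay in the 5 multi-copy windows. Members held 37 and 50 reads of the 50-ng controls, or 1.09% and 1.48% against 3.21% and 3.13% with BGT, of which 7 and 9 reads lay in multi-copy windows. They held 110 and 63 reads of the 5-ng controls, of which 29 and 10 lay in multi-copy windows. The first of these was 2.96% of its control library (2.44% to 3.56%), the same share as in the labelled library of that number, and the second 1.33% (1.03% to 1.70%) against 2.94%. No control library had over 28 reads in a single member. The intervals cover counting error only and treat reads as independent, so they are too narrow where reads gather in few members.

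Members lay in other places than CG-dense windows in general. The shares of the others include windows over 50% repeat-masked, which made up 19.3% of the others and 0.583% of members. An annotated transcription start site (TSS) of a protein-coding transcript lay inside 1045 members (33.9%) against 9414 of the other CG-dense windows (63.3%), and the share was lower in members on all 19 autosomes. Including windows within 1 kb of a TSS, the shares were 47.2% and 70.9%. A further 592 members were 1 to 5 kb from a TSS, a distance at which 534 (3.59%) of the other CG-dense windows lay, and 1037 (33.6%) were over 5 kb away, against 25.5% of the others and 31.7% of those lacking 5hmC. Over 50 kb away were 6.97% of members and 13.6% of the others. The median distance of members was 1416 bases. Where no TSS was inside, 1423 members lay downstream of the nearest TSS and 617 upstream, against 3025 and 2427 of the others.

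Most members were inside genes. The midpoint of 2384 members (77.3%) was in a protein-coding gene, against 57.7% of the other CG-dense windows and 54.7% of those lacking 5hmC, with a higher share in members on all 19 autosomes. Members in a gene without a TSS in the window numbered 1547 (50.1%), against 14.5% of the others. Only 73 members had no protein-coding gene within 50 kb (2.37%), against 1492 of the others. The annotation was not used by the rule, and exact 95% binomial intervals, for counting error only, were 75.8% to 78.7% in members and 56.9% to 58.5% in the others for the share inside genes.

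Members lay along the whole gene, with the largest shares at its ends, while most of the other CG-dense windows inside genes were at the start. Each gene was cut into 10 bins of equal length from 5′ to 3′. Of members inside a gene 24.1% were in bin 1 and 15.2% in bin 10, against 63.0% and 2.64% of the others. Read the other way, 9.61% of the CG-dense windows in bin 1 were members, and this share was 29.2% in bin 5, 51.9% in bin 9 and 61.6% in bin 10. Of CG-dense windows inside genes and over 5 kb from a TSS, 709 of 1634 (43.4%) were members. With windows over 50% repeat-masked left out this share was 69.7%, and that of all CG-dense windows went from 17.2% to 20.4%. Outside protein-coding genes and without a TSS, 493 of 3789 windows were members before and 478 of 1576 (30.3%) after leaving them out. The 50-ng signal of single-copy members also differed along the gene, with a median of 2.04 reads per CG in bin 1 and 3.42 in bin 10. Their median uCG signal was 3.02 and 2.79.

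**Figure D2:**
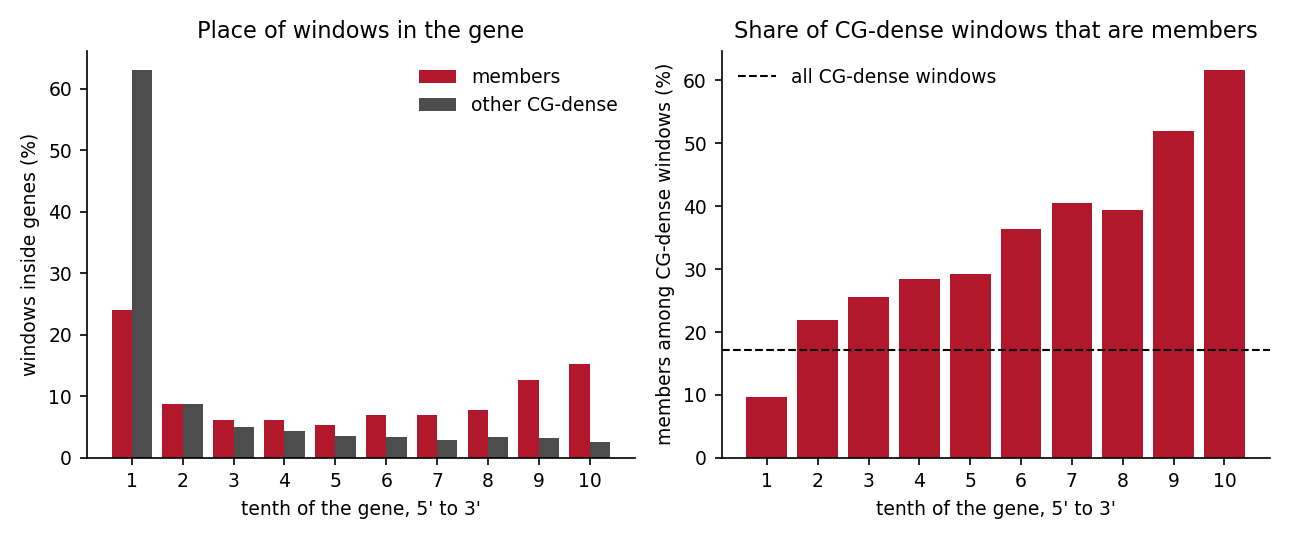
Left, percentage of members and of other CG-dense windows inside protein-coding genes by bin of the gene, from bin 1 at the 5′ end to bin 10 at the 3′ end; right, percentage of CG-dense windows in each bin that were members, with the value for all CG-dense windows, 17.2%, as a dashed line. The right panel runs from 9.61% in bin 1 to 61.6% in bin 10.

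Coding sequence took a larger part of members. Coding exons held 35.3% of the CGs of single-copy members and 12.8% of those of the other CG-dense windows. For introns the shares were 30.7% and 33.6%, for 5′ UTRs 7.96% and 18.7%, and for 3′ UTRs 4.19% and 0.790%. At least 50% of the CGs were coding in 1093 members (35.4%) and in 6.83% of the others. A single uninterrupted coding stretch of at least 1000 bases lay in 398 members (12.9%), against 1.59% of the others, and the last coding exon of a transcript was touched by 31.2% of members and 8.19% of the others. Within single-copy members the 50-ng signal was 3.45 ± 0.185 reads per CG (SD, n = 2) in coding exons and 2.88 ± 0.157 in introns. It was 3.17 ± 0.113 in 3′ UTRs but 1.24 ± 0.0595 in 5′ UTRs. The uCG signal of the same features lay between 2.78 ± 0.478 and 2.97 ± 0.528 reads per CG (SD, n = 3, depth differences included), and differences between features were not tested.

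Base composition also differed, with fewer CGs than expected from GC content. The members' median GC content was 55.7% and the ratio of observed to expected CGs 0.485, against 53.7% and 0.614 in the other CG-dense windows. Over the whole window, 309 members had both a GC content of at least 50% and a ratio of at least 0.6, as a CG island has, against 6334 (42.6%) of the others. Repeats were rare in members, since 18 were over 50% repeat-masked (0.583%), against 2865 of the others (19.3%). The 2865 masked windows had a pooled uCG signal of 0.0638 ± 0.0114 reads per CG (SD, n = 3), and the part of read mappability in this was not tested.

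Within single-copy members, to which the values for members in this paragraph refer, 5hmC reads avoided the most crowded CGs. CGs with 7 to 9 CGs within 90 bases on either side, themselves included, had the highest 50-ng signal, 3.91 ± 0.187 reads per CG (SD, n = 2). The signal was 3.10 ± 0.117 at 1 to 3 CGs, 2.43 ± 0.128 at 13 to 15 and 0.420 ± 0.0358 at over 20. The share of CGs read in both 50-ng libraries went from 38.6% at 7 to 9 CGs to 4.96% at over 20. In the other CG-dense windows the signal fell from the lowest class on, from 1.17 ± 0.0403 to 0.0227 ± 0.00198. The uCG signal of members was 3.22 ± 0.565 reads per CG at 7 to 9 CGs and 1.74 ± 0.362 at over 20 (SD, n = 3), a smaller fall than that of 5hmC. Both assays thus fell at over 20 CGs, and the ratio of both signals fell with them.

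**Figure D3:**
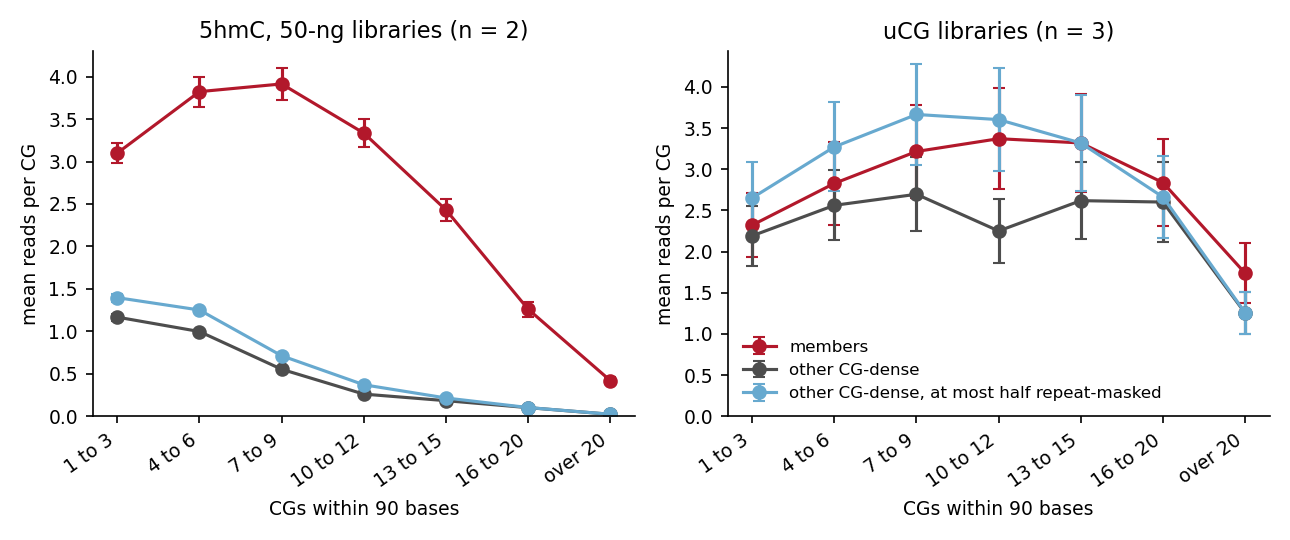
Mean reads per CG (y axis) of CGs grouped by the number of CGs within 90 bases (x axis), for 5hmC at 50 ng on the left and uCG on the right. Groups are single-copy members, other CG-dense windows and the latter with windows over 50% repeat-masked left out. Bars are the SD over libraries. Members peak at 3.91 reads per CG in the left panel, and in the right panel the others without masked windows lie above the members at 7 to 9 CGs, at 3.67 against 3.22.

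Members with a TSS showed a dip at the start site. In windows with a TSS inside, the 50-ng signal of members was 3.94 ± 0.0670 reads per CG from -1000 to -801 bases, 1.38 ± 0.0815 in the 200 bases from the TSS on and 3.81 ± 0.127 from 800 to 999 bases (SD, n = 2). The other CG-dense windows with a TSS had 1.45 ± 0.0159, 0.0753 ± 0.00353 and 0.809 ± 0.0260 at the same places. Local CG density differed too, as the members' CGs there had means of 6.82, 15.9 and 8.10 CGs within 90 bases. Over all places, CGs of single-copy members with 16 to 20 CGs within 90 bases had 1.26 ± 0.0889 reads per CG. The part of local CG density in the dip was not tested. The uCG signal of members was 2.93 ± 0.543 reads per CG in the 200 bases from the TSS on (SD, n = 3). It was 3.30 ± 0.564 from -400 to -201 bases and 3.32 ± 0.612 from 400 to 599 bases, and further out 2.75 ± 0.451 from -1000 to -801 and 3.01 ± 0.554 from 800 to 999 bases, so that its mean was also lower at the TSS than just beside it. This SD includes the difference in depth between the uTOP-seq libraries, and the differences between places were not tested. The 1044 single-copy members with a TSS had a lower median 50-ng signal, 2.08 reads per CG, than the 1547 members in genes without one, 3.12. The median uCG signals of these groups were 2.99 and 2.91. Members in genes and over 5 kb from a TSS had medians of 3.54 and 2.66.

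**Figure D4:**
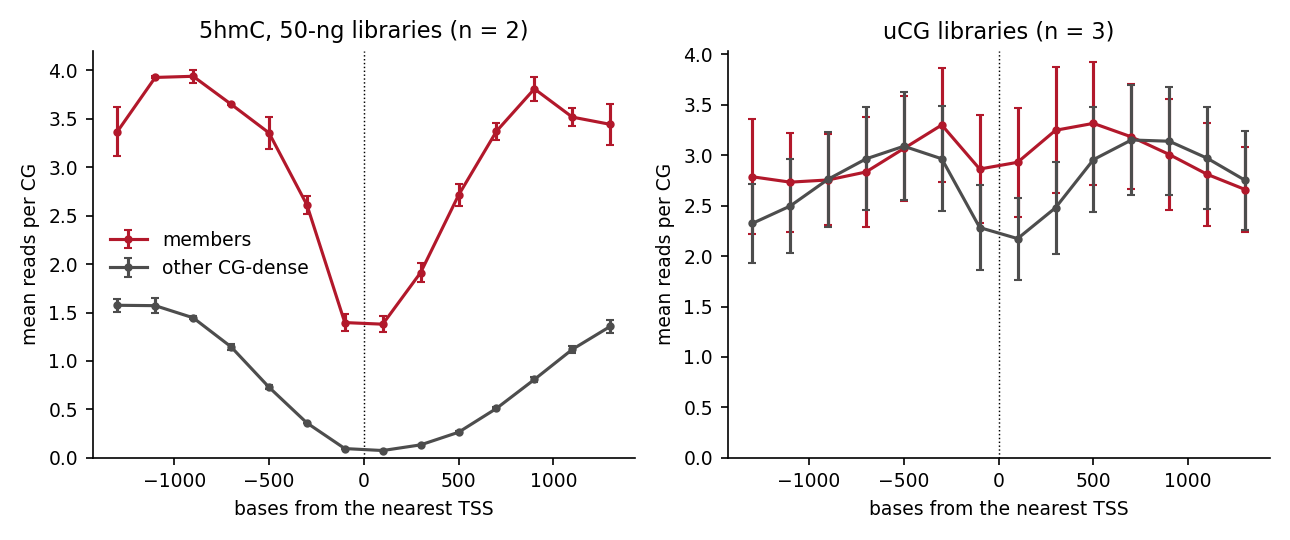
Mean reads per CG by distance from the nearest protein-coding TSS (x axis, bases, negative upstream) in windows that hold a TSS, for 5hmC at 50 ng on the left and uCG on the right; bars are the SD over libraries. The 5hmC dip at the TSS reaches 1.38 reads per CG in members and 0.0753 in the other windows.

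uCG reads were not used by the rule, although both assays share the mappability of a CG. On the face of the pooled values members had more uCG reads. The 3 uTOP-seq libraries gave 3.90, 3.22 and 2.74 reads per CG in members and 2.54, 2.10 and 1.77 in the other CG-dense windows. The difference was 1.15 ± 0.198 reads per CG (SD, n = 3), above 0 in 3 of 3 libraries and on all 19 autosomes, with an exact two-sided sign-flip p of 0.25, the smallest that 3 libraries can give. Without the multi-copy windows it was 0.799 ± 0.147, and with the windows over 50% repeat-masked also left out of the others it was 0.445 ± 0.0843. When these others were in addition weighted CG by CG to the local CG density of the members, the sign turned, and the difference was -0.216 ± 0.0310 reads per CG, below 0 in 3 of 3 libraries (exact p = 0.25). The weighting with the masked windows kept, again without the multi-copy windows, gave 0.497 ± 0.109. Among the alternatives run, the sign turned only where the masked and multi-copy windows were both left out and the others were weighted, and no direction is given for it here.

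Most members carried both readouts. A total of 2872 members (93.1%) were above the autosomal uCG mean in all 3 libraries and 88 (2.85%) below it in all 3. Most of the other CG-dense windows were also above it (72.8%), and 24.4% were below. With windows over 50% repeat-masked left out, 2.54% of members and 6.25% of the others had under 1 uCG read per CG, while 99.3% of the masked others did. On single CGs of single-copy members, 68211 of 232820 (29.3%) had a read in both 50-ng libraries, 97210 (41.8%) a read in all 3 uTOP-seq libraries and 36552 (15.7%) both. The shares of CGs in the other CG-dense windows were 2.90%, 30.8% and 1.64%. A further 31659 CGs (13.6%) had the 5hmC reads without a full set of uCG reads, and 60658 (26.1%) the reverse, against 1.26% and 29.2% in the others. uCG signal was not lower where 5hmC was high: CGs with no 50-ng read had 2.29 uCG reads, those with a mean over 5 had 4.19. In the other CG-dense windows the values were likewise 1.96 and 4.47. Reads of a CG in 2 assays come from many cells and both alleles, and share the CG's mappability.

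The 5hmC reads of a member were spread over many CGs. The median member had a 50-ng read on 59.1% of its CGs and a 500-ng read on 80%, and its strongest CG held 10.2% of its 50-ng reads, with a range over members from 2.17% to 50.5%. A median of 87.3% of the CGs had a uCG read.

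Members lay in regions that were richer in CGs and 5hmC than those around other CG-dense windows. The windows next to a single-copy member had 42.0 CGs on both sides, and those 20 kb further on 28.9, against 35.3 and 21.9 for the others. The 50-ng signal was 2.90 ± 0.143 reads per CG in members, 2.36 ± 0.100 in the next window and 2.03 ± 0.0626 at 20 kb (SD, n = 2). For the other CG-dense windows it was 0.321 ± 0.0113 inside, 1.06 ± 0.0334 in the next window and 1.63 ± 0.0471 at 20 kb. The level inside the windows follows from the rule, and so does part of that next to them, since 17.3% of members have a neighbour that is itself a member. The others here include windows over 50% repeat-masked, and surroundings without these are not given.

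**Figure D5:**
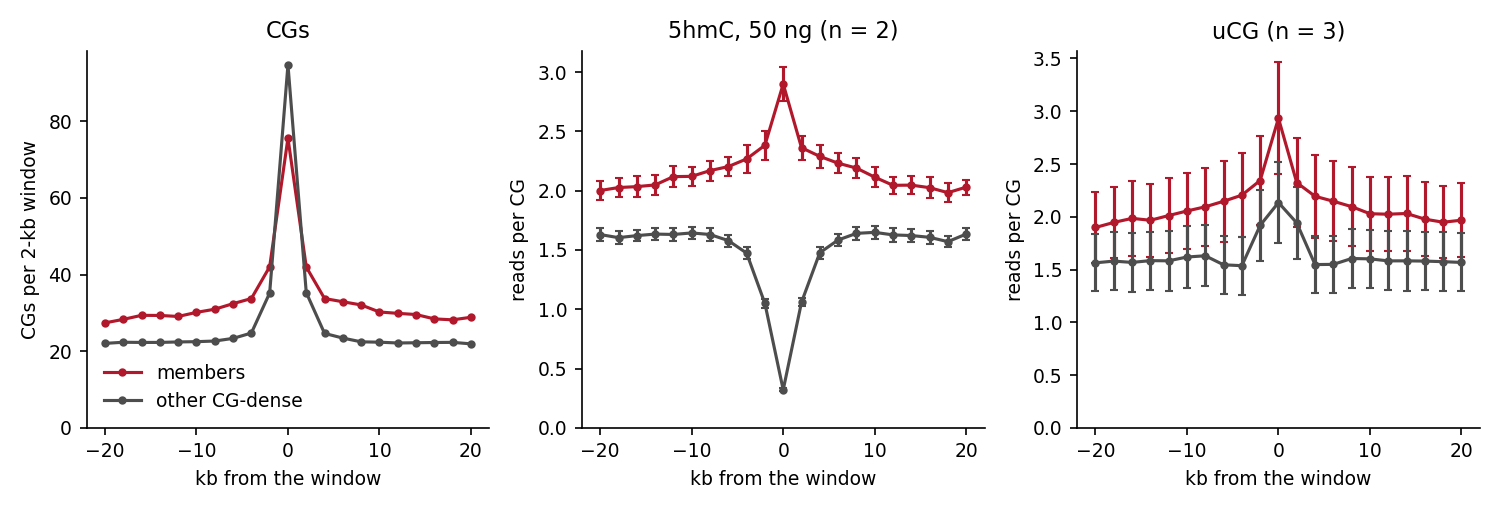
CGs per 2-kb window (left), 50-ng reads per CG (middle) and uCG reads per CG (right) in windows up to 20 kb on either side of single-copy members and of other CG-dense windows; bars are the SD over libraries. In the middle panel members rise from 2.03 reads per CG at 20 kb to 2.90 and the others fall from 1.63 to 0.321.

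Few members had a member as neighbour. The 3085 members formed 2795 runs, of which 244 held more than 1 window, and 534 members (17.3%) lay in such runs. The longest run was 6 windows over Plec, chr15:76172001-76184000, the gene of the cytoskeletal linker plectin, with 645 CGs, means of 5.03 reads per CG in the 50-ng libraries, 2.89 in the 5-ng libraries and 2.32 in uTOP-seq. Runs of 4 windows lay over Spen, a transcriptional regulator of X inactivation, at 6.14 reads per CG at 50 ng, over Nbeal2 at 4.47, at Hand1, a heart transcription factor, at 4.05, over Itpr3, a calcium channel of the endoplasmic reticulum, at 4.02, over Hoxb5 and Hoxb6 at 3.14, and over the non-coding Gm26872. The remaining run of 4 windows was the multi-copy rRNA unit.

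The strongest single-copy members are given as a description, since the 500-ng or 50-ng signal picked them. 1600014C10Rik, chr7:38182001-38184000, led with 24.6 and 22.7 reads per CG in the 500-ng libraries, 15.8 and 15.6 in the 50-ng libraries, 8.09 and 10.2 in the 5-ng libraries and 3.97, 3.80 and 4.21 in uTOP-seq, with a TSS in the window. Gm6089, chr5:26070001-26072000, a pseudogene whose reads may be shared with a parent gene, had 18.4 and 17.8 in the 500-ng libraries and 11.8 and 10.3 in the 50-ng libraries. The Smpd3 window, chr8:106264001-106266000, over a sphingomyelinase gene, had 15.2 and 13.3 in the 500-ng libraries and 9.82 and 8.56 in the 50-ng libraries, with 77.4% of its CGs coding.

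The next windows lay close together. Jak3, a cytokine receptor kinase, had 8.66 and 7.50 at 50 ng, and Synpo2, an actin-binding protein gene with 87.1% of the CGs coding, had 9.02 and 8.77. Gse1 had 9.80 and 8.71, and Plxnb2, a semaphorin receptor gene, had 9.72 and 8.45. Tbx5, a T-box factor of heart and forelimb, had 14.3 and 12.3 reads per CG in the 500-ng libraries, 7.79 and 7.93 in the 50-ng libraries, 7.07 and 4.21 in the 5-ng libraries and 2.64, 3.01 and 2.39 in uTOP-seq. None of these windows was low for uCG, with means between 2.38 and 3.19 reads per CG.

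A small number of members had almost no uCG reads. The lowest was a window at the non-coding genes C230088H06Rik and Gm26624, chr4:147218001-147220000, with 0.0145, 0 and 0 uCG reads per CG. It had 4.32 and 4.17 reads per CG at 50 ng, 3.78 and 0.551 at 5 ng, and was 30.75% repeat-masked. A window in Camk2b without coding CGs, chr11:6006001-6008000, had 119 CGs, 1.92 and 1.89 reads per CG at 50 ng and 0.0168, 0.00840 and 0 for uCG, and was 59% repeat-masked. The 3 intergenic windows with Gm21833, Gm14393 and Rpap3 as nearest genes followed at 0.200, 0.206 and 0.268 uCG reads per CG, and were 54.6%, 96.3% and 49.9% masked. In all, 92 members (2.98%) had under 1 uCG read per CG, and 14 of the 18 members over 50% masked were among them. The highest uCG values were those of the 5 multi-copy windows.

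The windows next to the threshold are given as a description. Just inside were windows at 4930444P10Rik, at C130074G19Rik and near Hnrnpu, with 1.07, 1.53 and 1.43 reads per CG at 50 ng. Just outside were windows at Onecut1, Runx1 and Itpripl2, with 1.43, 1.43 and 1.38. In the lower of their 500-ng libraries the first group had 2 reads per CG and the second 1.99.

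Genes were then taken by group, from lists that were drawn up with earlier results of these data known, so that the counts are a description. Of 11991 protein-coding genes with a CG-dense window in their body or 2 kb upstream, 2411 (20.1%) had a member there, and of the 14588 windows concerned 2708 (18.6%) were members and 47.0% lacked 5hmC. Read-through models such as Gm20388 span many genes and are counted as annotated.

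Developmental transcription factors had members in 102 of 167 genes with a CG-dense window, and 177 of their 456 windows (38.8%) were members. Irx5, a homeobox factor, had 7.04 and 6.95 reads per CG at 50 ng in a window within its gene. Vax2, a factor of eye patterning, had 6.88 and 6.32, and Dlx5, a factor of limb and craniofacial development, 7.27 and 5.92. Clustered Hox genes, which set positional identity, had members in 26 of 39 genes and in 37 of 75 windows (49.3%). Hoxc4 had 6.57 and 5.34, Hoxb13 4.50 and 6.62, Hoxd12 5.34 and 5.46, and a window at Hoxa3 and Hoxa6 had 5.32 and 5.39. A TSS lay in 27.7% of the members at developmental factors, below the 38.6% of members at all protein-coding genes, and in 43.2% of those at Hox genes, above it.

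Germline genes, many of which are held silent by promoter methylation outside the germ line, had members in 19 of 33 genes and in 21 of 45 windows (46.7%). A TSS lay in 71.4% of these members. Ctcfl, the testis paralogue of CTCF, had 4.58 and 4.47 reads per CG at 50 ng and 2.75, 1.45 and 1.70 for uCG. Mov10l1, a helicase of the piRNA pathway, had 4.65 and 4.38, Slc25a31, a testis ADP/ATP carrier, 3.85 and 5.03, and Stra8, a factor of meiotic entry, 3.87 and 4.15. The median uCG signal was 2.11 reads per CG in their members, beside 2.96 in the members at all protein-coding genes, and the other CG-dense windows of germline genes were also lower, at 1.97 beside 2.57. Imprinted genes had members in 10 of 47 genes and 11 of 76 windows (14.5%), among them Peg10 at 2.53 and 3.92 reads per CG, Igf2 at 2.29 and 2.88 and Dio3 at 2.55 and 1.79.

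Signalling ligands and receptors had members in 44 of 93 genes and 66 of 210 windows (31.4%). Fgfr4, a fibroblast growth factor receptor, had 8.49 and 7.02 reads per CG at 50 ng, Bmp7 7.63 and 6.61, Wnt11 6.73 and 6.31 and Wnt9b 6.34 and 6.26. Collagen and extracellular matrix genes had members in 15 of 36 genes and 19 of 49 windows (38.8%), with Lamb2 at 8.30 and 6.48, Tnxb at 6.86 and 6.05, Hspg2 at 5.88 and 5.95 and Tnc at 4.10 and 5.89. Genes of voltage-gated calcium and potassium channels had members in 38 of 86 genes and 50 of 147 windows (34.0%). Kcng1 had 6.88 and 5.06, Cacna1h 5.73 and 4.98 and Cacna1b 5.04 and 5.25. In the windows of Tnc and Lamb2, 91.8% and 89.6% of the CGs were coding.

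Pluripotency factors had members in 7 of 25 genes and 10 of 48 windows (20.8%), and 54.2% of their CG-dense windows lacked 5hmC, beside 18.6% and 47.0% for all protein-coding genes. Sall1 had 7.66 and 7.56 reads per CG at 50 ng in a window with every CG coding, and Sall4, which helps to hold the pluripotent state, 7.41 and 6.51 with 93.3% of the CGs coding. Zscan10 had 5.20 and 3.77 and Tbx3, from a window 669 bases upstream of a TSS, 3.70 and 3.75. Genes that write, read or remove cytosine modification had members in 6 of 25 genes and 9 of 45 windows (20%), with Cxxc5 at 7.25 and 5.75, Zbtb4 at 5.20 and 4.58 and Kdm2b at 3.37 and 3.57. The clustered protocadherins, cell adhesion genes in tandem arrays, had 26 members among 45 windows (57.8%), with 2.22% of the windows lacking 5hmC against 47.0% for all protein-coding genes, and overlapping models make 40 of 43 genes share these windows. Their members had a median of 1.93 reads per CG at 50 ng, below the 2.59 of members at all protein-coding genes.

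The share of CG-dense windows that were members differed between autosomes, from 10.1% on chromosome 16 to 22.9% on chromosome 11. It also fell with the number of CGs in the window, from 28.3% at 60 to 69 CGs to 5.12% at 100 or more.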

How the data were processed

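The authors kept raw Ion Proton reads of 80 nt or longer, placed them on mm10 (mapping quality 30 or higher), counted reads that shared start and length once, and credited each to the CG at its start. The deposited values are read counts per CG and library, with no normalization. hmTOP-seq counts merge both strands, and uTOP-seq counts by strand were summed here. Controls are the libraries labelled K, taken as no-BGT controls from the series design. All deposited library columns were used.

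Reads were summed over fixed 2-kb windows of 19 autosomes. Reads per CG are the sum over windows divided by their CGs, unless a median over windows is named. Depth limits single windows most at 5 ng. Gene models were those of GENCODE mouse release 21 and the sequence was GRCm38. A TSS was the start of a protein-coding transcript, and a gene was named for a window that overlapped its body or 2 kb upstream. Repeats were the soft-masked sequence.

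The members, gene lists and groups were chosen with earlier results of these data known. Named windows were the 12 with the highest 500-ng signal, the 5 highest at 50 ng, the 5 lowest and 5 highest for uCG, 3 on each side of the threshold, the longest runs, and up to 4 windows per list with the highest 50-ng signal. The 5 single-copy windows highest at 50 ng were added later, not every window of this rule is printed, and some items are not reported here. The uCG difference was tested with an exact sign-flip test over libraries. 5 ng was compared with 50 ng by edgeR's quasi-likelihood test with TMM scaling and Benjamini-Hochberg adjustment on counts of windows with 10 reads in at least 2 of 4 libraries. Code was checked on simulated data. hmTOP-seq replicates are technical and uTOP-seq replicates may be, so errors and p-values measure only the spread between these libraries. Alternatives changed the CG and read minimums, the grid, a cap of 20 reads per CG, the annotation, the libraries and the test.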

Additional observations from a re-analysis of the deposited data

How the results depend on the processing

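The 500-ng minimum, the CG minimum and the annotation set the counts. With a CG minimum of 50 there were 6928 members, with 80 there were 897, and with a minimum of 3 reads per CG there were 1999. The ratio of members to other CG-dense windows at 50 ng was 9.81 with a CG minimum of 50, 8.93 with 80, 9.61 with a minimum of 1.5 reads per CG, 9.58 on a grid shifted by 1000 bases, 8.84 with reads of each CG capped at 20 and 13.4 as a ratio of medians. Among alternatives added after the data were seen, it was 9.04 without the 5 multi-copy windows, 6.20 with the others weighted to the members' local CG density and 8.43 without others over 50% repeat-masked; at 5 ng it was 8.50 without the multi-copy windows. Leaving out 1 library gave 9.35 to 9.54 at 50 ng and 8.88 to 8.91 at 5 ng.

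Members with a TSS inside or within 1 kb made up 35.1%, 56.6%, 52.6% and 38.4% at a CG minimum of 50, of 80 and read minimums of 1.5 and 3, 36.1% with the outermost start of each gene and 62.1% with transcripts of all gene types. Members inside genes made up 79.7% at a CG minimum of 80, 75.1% and 80.7% at read minimums of 1.5 and 3, 75.3% on the shifted grid and 83.4% with genes of all types. The uCG difference ranged from 1.04 to 1.24 reads per CG over libraries left out, and turned to -0.216 only with others at most 50% repeat-masked, weighted to the local CG density, and without the multi-copy windows; this was chosen after the data were seen and the cause was not tested.

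In the comparison of 5 with 50 ng, DESeq2 called 29 members, with 0.598% of all tested windows called, and no filter on low counts 5, with 0.00139% called. Leaving out 1 library gave between 0 and 833 members, and the 833 and 760 without a 5-ng library stood beside 30.3% and 27.5% of all windows. A fit with the replicate block called 0 members. No pairing by replicate number was visible, as deviations of libraries with the same number had a correlation of 0.00268 over windows. This does not settle how the libraries were prepared, since the noise of the 5-ng counts could hide a shared deviation.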
